A study of Mus musculus with 18 samples.

Results

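Fibrous and network-forming collagens are the main proteins of the extracellular matrix, and the chains examined here are all genes of the deposited expression table whose symbol has the form of a collagen chain. There were 44 such genes among 23951, of which 11 were fibrillar chains, 6 were basement membrane (type IV) chains, 9 belonged to the fibril-associated collagens with interrupted triple helices (FACIT) and 18 belonged to other classes. The table covers 18 RNA-seq libraries in 5 groups, made from cells sorted out of mouse pancreas and pancreatic tumors. Normal pancreatic fibroblasts (NPF, n = 3) came from mice carrying Elas-tTA/tetO-Cre and Rosa26+/EYFP, in which an elastase promoter drives the tetracycline transactivator in acinar cells, the transactivator switches on the Cre recombinase, and Cre marks its cells with a fluorescent reporter. Cancer-associated fibroblasts (WT_CAF, n = 5) and tumor cells (WT_tumor, n = 4) came from tumors of mice with the same alleles and Trp53lox/lox. KO_CAF (n = 3) and KO_tumor (n = 3) came from such mice that were also Saa3-/-, that is, without serum amyloid A3, an acute-phase protein. The Saa3-/- genotype is written for the whole animal, so fibroblasts and tumor cells both lacked the gene. The sort markers, and whether fibroblasts and tumor cells were taken from the same animals, are not stated in the labels.

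Collagen molecules are trimers of chains wound into a triple helix, and which chains a cell makes sets which trimers it can build. Fibrillar types I, III and V form the banded fibrils of the interstitium, FACIT chains sit on the surface of those fibrils, and type IV chains build the sheet on which epithelia rest. In pancreatic ductal carcinoma the dense stroma around the tumor cells is rich in fibrillar collagen, and fibroblasts are known as its main source.

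The promoters of the chains on which the results below turn were taken from RefSeq (build GRCm38.p6), in the 120 bases before the annotated start, read 5′ to 3′ on the strand of the gene. Col1a2 and Col3a1, chains of types I and III, are shown because they had some of the largest differences between fibroblasts and tumor cells. Col18a1 is shown with both of its annotated starts because it was the chain called higher in tumor cells.
Col1a2 (chr6:4505498-4505617, plus strand): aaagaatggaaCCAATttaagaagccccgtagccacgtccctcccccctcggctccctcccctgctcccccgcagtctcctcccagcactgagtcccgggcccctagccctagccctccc
Col3a1 (chr1:45311418-45311537, plus strand): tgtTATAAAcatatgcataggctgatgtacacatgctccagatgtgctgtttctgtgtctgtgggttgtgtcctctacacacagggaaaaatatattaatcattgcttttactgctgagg
Col18a1, first annotated start (chr10:77166531-77166650, minus strand): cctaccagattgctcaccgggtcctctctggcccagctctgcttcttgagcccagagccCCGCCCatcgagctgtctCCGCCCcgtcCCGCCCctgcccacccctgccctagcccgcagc
Col18a1, second annotated start (chr10:77113706-77113825, minus strand): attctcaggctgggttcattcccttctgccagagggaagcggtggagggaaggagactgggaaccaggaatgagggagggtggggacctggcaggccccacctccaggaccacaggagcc
Capitals mark motif matches: CCAAT in Col1a2 from position -109, TATAAA in Col3a1 from position -117, and 3 GC boxes (GGGCGG, here as its reverse complement) in Col18a1 from positions -61, -43 and -33. The second Col18a1 start had no match in the window shown.

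The set of RefSeq promoter windows used here, each 250 bases before to 50 bases after a start, held 38 windows for 35 of the 44 chains. Col1a1, Col5a2, Col12a1 and Col14a1 were among the chains without a window in this set. The motifs were searched before the start, CCAAT and GGGCGG on both strands and TATAAA on the given strand, without removing overlaps between motifs. GGGCGG occurred in 22 of the 38 collagen windows (57.9%) and in 32.7% of all 32851 windows. CCAAT occurred in 13 of the 38 (34.2%) and in 33.8% of all windows. TATAAA occurred in 5 of the 38 (13.2%) and in 7.59% of all windows. Collagen windows were richer in G and C as well, with a median of 59.0% against 52.4%. These matches are letters in a window and not measured binding.

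The annotated starts of Col4a1 (minus strand) and Col4a2 (plus strand) lie 21 bases apart. The plus-strand start has the lower coordinate, so by this annotation the first bases of both genes overlap on opposite strands. The stretch from one start to the other is shown because the ratio of these 2 chains varied little between libraries.
Col4a2 start to Col4a1 start (chr8:11312805-11312826, plus strand): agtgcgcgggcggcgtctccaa

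Values are FPKM, that is, fragments scaled by transcript length and by the fragments mapped in the library, so levels can be set side by side between genes. The targeted gene Saa3 read 1.85, 1.16 and 0.434 FPKM in KO_CAF 1 to 3 and 0.346, 0 and 0 in KO_tumor 1 to 3, against 892, 4278, 1182 and 2269.5 in WT_CAF 2 to 5 and 4.10, 2.75, 106 and 3.13 in WT_tumor 1 to 4. It read 331, 5.32 and 3.13 FPKM in NPF 1 to 3, so 3 of the 4 WT_tumor libraries and NPF 2 and 3 held little of it. The library labelled WT_CAF 1 read 7.24 FPKM of Saa3 and stood apart from the other 4 in part of its cell type markers. It held 9.8 FPKM of the fibroblast receptor gene Pdgfra against 81.0 to 121 in WT_CAF 2 to 5 and was the lowest WT_CAF library for 8 of 11 fibroblast markers. The sum of those 11, 3815 FPKM, was still within the 3095 to 7038 of WT_CAF 2 to 5, with 2021 FPKM from S100a4 and 1288 from Vim. Over 11 epithelial genes its sum was 684 FPKM against 31.7 to 354. It was the highest WT_CAF library for 5 of these (Krt8, Krt18, Krt19, Cdh1 and Tspan8) and the lowest for the other 6, Epcam among them at 0.22 FPKM. The fibroblast sum was 10807 to 20539 FPKM in NPF. The highest of these sums, that of NPF 1, held 17383 FPKM from S100a4. NPF 1 was the lowest NPF library for 7 of the 11 markers, Pdgfra and Vim among them, and the highest for 3 (Thy1, Pdpn and S100a4). In tumor cells the fibroblast sum was 429 to 2900 FPKM, and all 11 markers reached 1 FPKM in some WT_tumor library. Pdgfra reached 61.04, 75.5 and 119 FPKM in NPF and at most 1.86 in tumor cells. The epithelial sum was 3232 to 8639 FPKM in tumor cells, lowest in WT_tumor 4. That library was the lowest of WT_tumor for 10 of the 11 epithelial markers, with 2.60 FPKM of Epcam against 129 to 549. Its Krt8 and Krt18 still read 1188 and 1109 FPKM, and its Vim, at 2231 FPKM, was the highest of WT_tumor. The bearing of these marker values on its collagen values was not tested. WT_tumor 3 had the lowest fibroblast sum of all tumor cell libraries (429 FPKM). Within WT_tumor it was the highest library for 6 of the 11 markers (Pdgfra, Pdgfrb, Dpt, Thy1, Pdpn and Mfap5) and the lowest for 4 (Fbln1, Fbln2, Gsn and Vim), and the part of other cells in its collagen values was not tested. Sums over 13 acinar genes were 1336, 7846 and 53379 FPKM in NPF 1 to 3 and 29.5 to 828 in WT_CAF. In KO_CAF these acinar sums were 13.997 to 217 FPKM. They varied widely in tumor cells, at 19309, 8692, 2311 and 16.04 FPKM in WT_tumor 1 to 4. In KO_tumor 1 to 3 they were 10.13, 12618 and 27620 FPKM. The part of acinar transcripts in the differences between tumor cells and fibroblasts was not tested. The labels come in 3 forms, with no index (NPF, WT_CAF 1 and 2), a 6-base index or a 16-base index, taken here as the library format.

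In all, 7 values could not be used. Col3a1 was listed at exactly 0 in WT_CAF 2, 3 and 4 and in KO_CAF 1 and 2, and Col1a1 and Col1a2 were listed at 0 in KO_CAF 2. The same genes stood at 1838 FPKM or more in the other libraries of those groups apart from WT_CAF 1, and KO_CAF 2 held 925 FPKM of Col5a1. These zeros were treated as failed estimates and dropped, so each value below that involves these 3 chains rests on fewer libraries.

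**Figure D1:**
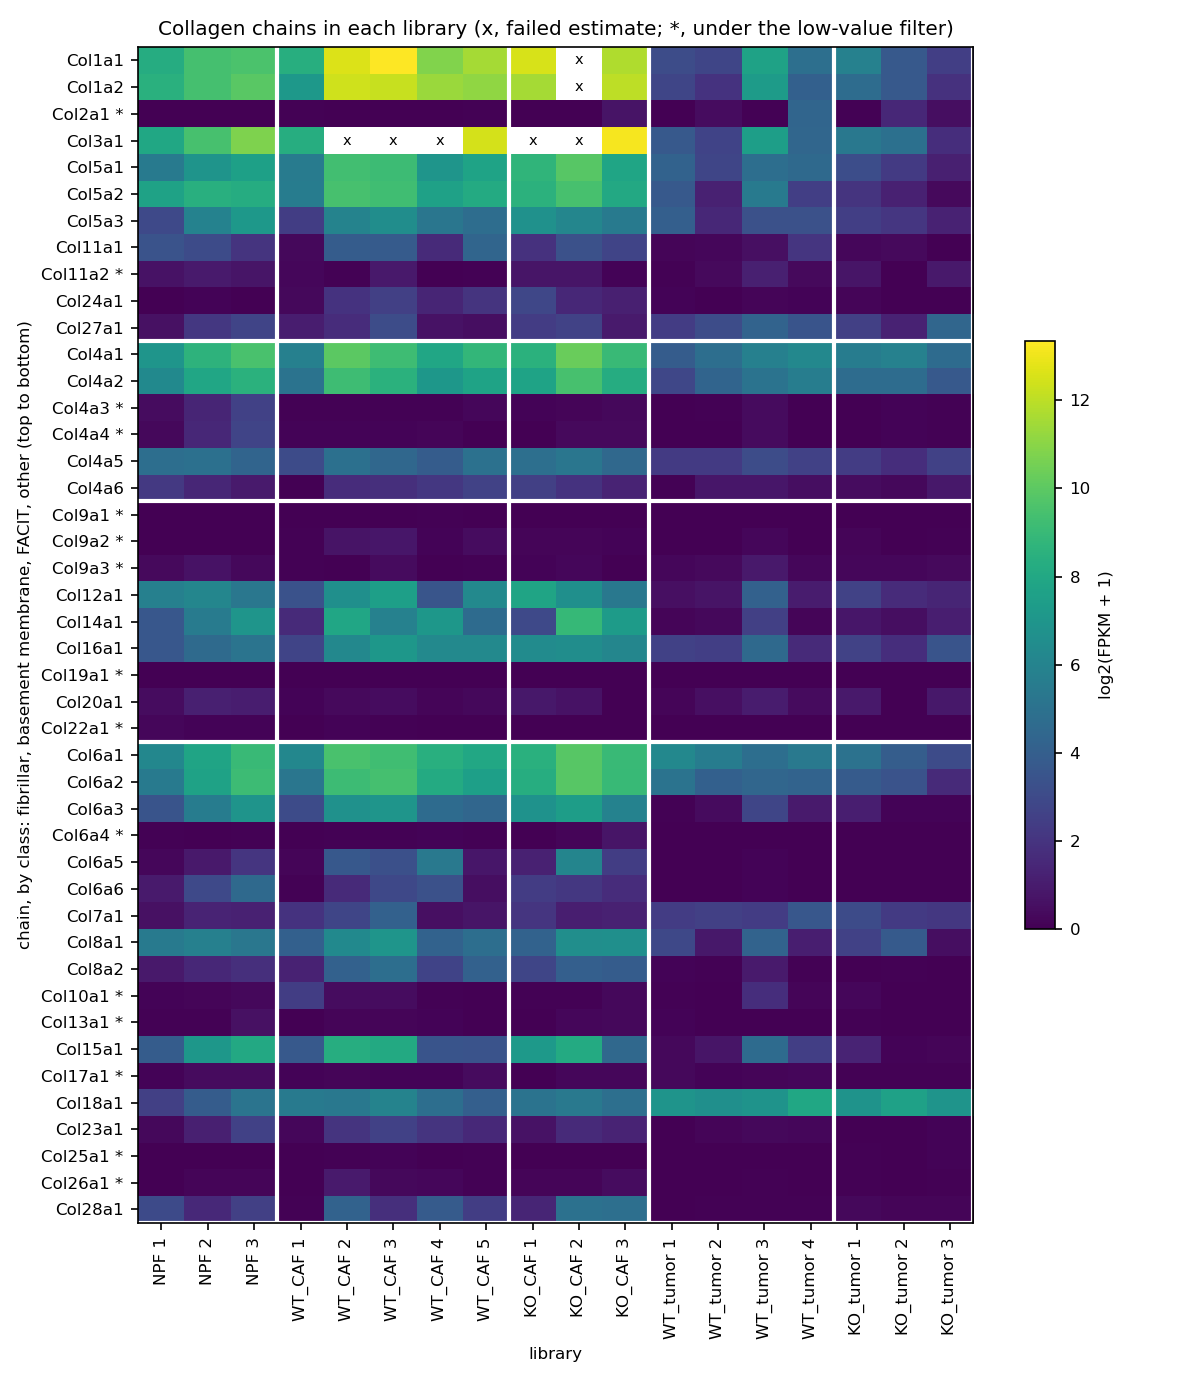
Level of each of the 44 collagen chains, as log2(FPKM + 1) by colour, in each of the 18 libraries, with chains grouped by class from top to bottom and groups of libraries from left to right. An x marks a failed estimate and an asterisk a chain under the low-value filter. Most chains with colour are bright in the 11 fibroblast libraries and dark in the 7 tumor cell libraries, with Col18a1 the reverse and WT_CAF 1 darker than WT_CAF 2 to 5.

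A chain was tested where it reached 1 FPKM in at least 3 libraries, which 29 of the 44 did. The 15 others were Col2a1 and Col11a2 (fibrillar), Col4a3 and Col4a4 (basement membrane), Col9a1, Col9a2, Col9a3, Col19a1 and Col22a1 (FACIT), and Col6a4, Col10a1, Col13a1, Col17a1, Col25a1 and Col26a1 (other). Of these, 10 did not reach 1 FPKM in any library. Col4a3 and Col4a4, the partner chains of Col4a5 in kidney and lung basement membranes, reached 1.59 and 1.78 FPKM in NPF 2 and 5.09 and 5.73 in NPF 3, and stayed under 0.4 FPKM elsewhere. Col2a1, the main chain of cartilage, read 19.8 FPKM in WT_tumor 4, 1.76 in KO_tumor 2 and under 0.7 in the rest. Col10a1, a chain of hypertrophic cartilage, read 4.46 FPKM in WT_CAF 1 and 2.40 in WT_tumor 3, and under 0.4 elsewhere. Col11a2 reached 1.24 FPKM in WT_tumor 3. The number of chains at 10 FPKM or more was 16, 18 and 19 in NPF 1 to 3, 12 in WT_CAF 1, 19 to 21 in WT_CAF 2 to 5, 16 to 20 in KO_CAF, and 5 to 15 in tumor cells. The 41 chains other than Col1a1, Col1a2 and Col3a1 summed to 779, 2036 and 3581 FPKM in NPF, 409 in WT_CAF 1, 1755 to 5409 in WT_CAF 2 to 5, 2843 to 6974 in KO_CAF and 214 to 528 in tumor cells.

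Type I collagen, the trimer of Col1a1 and Col1a2 chains that makes up most of the interstitial fibril, was among the highest collagens of the fibroblasts. Col1a1 read 312, 686 and 764 FPKM in NPF 1 to 3 and 331, 6494, 10436, 1838 and 3031 in WT_CAF 1 to 5. In KO_CAF 1 and 3 it read 6029 and 3426 FPKM. Tumor cells held 7.7, 5.83, 208 and 28.1 FPKM of Col1a1 in WT_tumor 1 to 4 and 56.8, 12.4 and 4.63 in KO_tumor 1 to 3. Every fibroblast library with a value was above every tumor cell library for this chain, and WT_CAF 2 to 5 were above the 3 NPF libraries while WT_CAF 1 was within their range. Col1a2 read 359.8, 683 and 991 FPKM in NPF, 135, 5311, 4834, 2637 and 2267 in WT_CAF 1 to 5, and 3014 and 4104 in KO_CAF 1 and 3. Tumor cells held 5.94, 2.92, 159 and 15.9 FPKM of it in WT_tumor and 25.6, 12.1 and 2.77 in KO_tumor. Here WT_CAF 1 (135 FPKM) fell below WT_tumor 3 (159 FPKM), so the WT_CAF and WT_tumor ranges overlapped through these 2 libraries. Col3a1, whose homotrimer is laid into type I fibrils, read 249.9, 696 and 1751 FPKM in NPF, 314 and 5661 in WT_CAF 1 and 5, and 9049.7 in KO_CAF 3. Tumor cells held 12.2, 5.33, 180.2 and 20.3 FPKM in WT_tumor and 39.3, 29.8 and 2.31 in KO_tumor, all below the fibroblast libraries that gave a value. WT_tumor 3 was the highest tumor cell library for all 3 of these chains.

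Type V chains, which start fibrils and limit their width, were lower than type I. Col5a1 read 44.9, 119.6 and 189 FPKM in NPF and 46.2, 633, 563, 124 and 216 in WT_CAF 1 to 5. Col5a1 read 425, 925 and 231 FPKM in KO_CAF, 17.5, 5.9, 26.8 and 22.4 in WT_tumor and 7.79, 3.84 and 1.27 in KO_tumor. All tumor cell libraries were under all fibroblast libraries, and the WT_CAF and NPF ranges overlapped. Its partner Col5a2 read 202, 341 and 306 FPKM in NPF and 48.2, 718, 612, 197 and 282 in WT_CAF. Col5a2 read 375, 699 and 269.7 FPKM in KO_CAF, 12.1, 1.3, 44.5 and 4.48 in WT_tumor and 2.97, 1.31 and 0.247 in KO_tumor, with the tumor cell libraries again under every fibroblast library. Col5a3, a rarer type V chain, read 6.75, 60.5 and 140.2 FPKM in NPF and 4.43, 61.6, 92.5, 37.5 and 26.4 in WT_CAF. Col5a3 read 105, 68.9 and 42.8 FPKM in KO_CAF, 15.6, 1.8, 8.77 and 8.9 in WT_tumor and 4.55, 3.35 and 1.4 in KO_tumor. For Col5a3 the low libraries NPF 1 and WT_CAF 1 lay among the tumor cell values.

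The other fibrillar chains were minor. Col11a1, a cartilage chain known as a marker of stromal fibroblasts in several carcinomas, read 9.55, 7.35 and 3.01 FPKM in NPF and 0.203, 14, 13.1, 1.97 and 19.4 in WT_CAF 1 to 5. Col11a1 read 2.71, 8.8 and 5.71 FPKM in KO_CAF, 0.136, 0.166, 0.457 and 3.12 in WT_tumor and 0.173, 0.286 and 0.0241 in KO_tumor. It was as high in NPF 1 and 2 as in several tumor fibroblast libraries. Col24a1, a fibrillar chain of developing bone and cornea, read 0.0179, 0.0876 and 0.0163 FPKM in NPF, near the bottom of the scale, and 0.202, 2.88, 4.73, 1.57 and 3.07 in WT_CAF 1 to 5. Col24a1 read 6.25, 1.78 and 1.23 FPKM in KO_CAF, 0.0775, 0, 0.144 and 0.0755 in WT_tumor and 0.129, 0 and 0.0183 in KO_tumor. All 5 WT_CAF libraries were above all NPF libraries, though WT_CAF 1 by little. Col27a1, another cartilage chain, showed no such order, with 0.541, 3.42 and 5.57 FPKM in NPF and 1.09, 2.22, 7.62, 0.581 and 0.387 in WT_CAF. Col27a1 read 4.15, 5.1 and 0.957 FPKM in KO_CAF, 4.17, 7.72, 18.2 and 10.1 in WT_tumor and 4.72, 1.41 and 20.1 in KO_tumor. Its ranges overlapped between fibroblasts and tumor cells, and WT_CAF 4 and 5 and KO_CAF 3, all with the 16-base index, were under 1 FPKM, as was NPF 1.

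**Figure D2:**
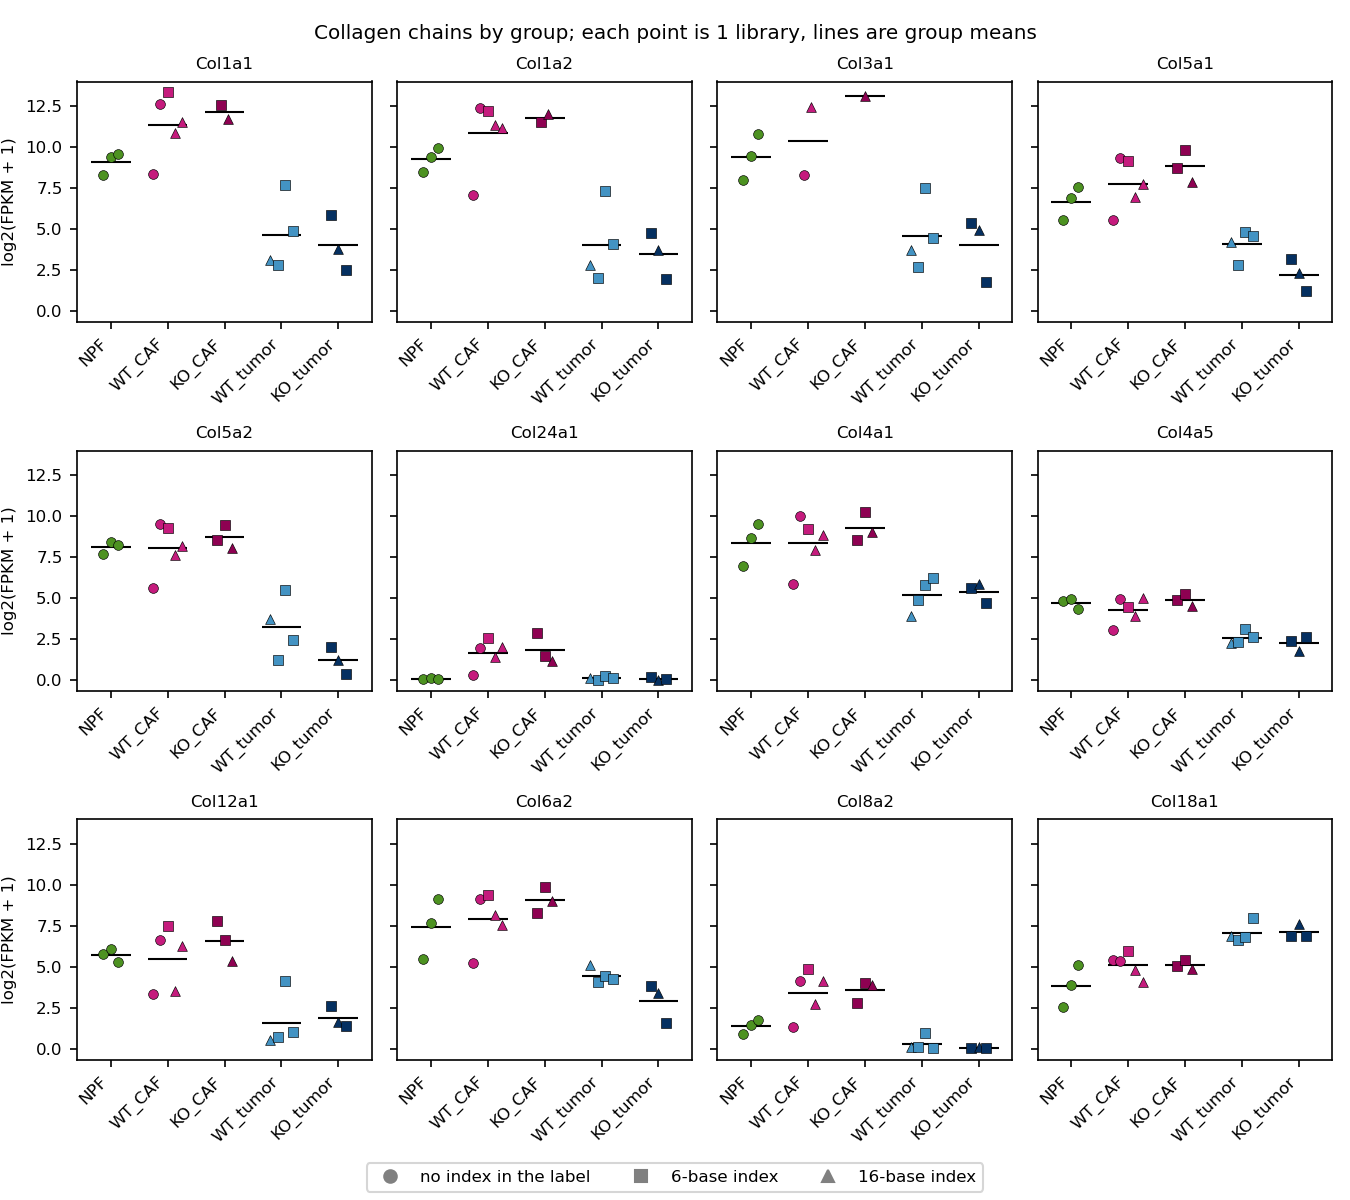
Level of 12 chains on the log2(FPKM + 1) scale by group, with 1 point per library, its shape giving the library format and the line the group mean. Fibrillar, type IV, FACIT, type VI and type VIII chains sit lower in the tumor cell groups, Col24a1 and Col8a2 are lowest in NPF among fibroblasts, and Col18a1 sits higher in both tumor cell groups.

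Basement membrane chains followed the same order of cell types at lower levels. Col4a1 read 124, 399 and 734 FPKM in NPF and 55.6, 1027, 586, 240.4 and 464 in WT_CAF 1 to 5. Col4a1 read 368, 1245 and 525 FPKM in KO_CAF, 14.02, 27.7, 54.7 and 73.9 in WT_tumor and 46.99, 56.7 and 24.8 in KO_tumor. WT_CAF 1, at 55.6 FPKM, was the single fibroblast library within the tumor cell range. Col4a2, its partner in the ubiquitous type IV trimer, read 80.6, 237 and 370.1 FPKM in NPF and 32.7, 597, 364, 133 and 212 in WT_CAF. Col4a2 read 216, 699 and 306 FPKM in KO_CAF, 6.25, 18.9, 32.8 and 49.6 in WT_tumor and 25.5, 25.1 and 12.2 in KO_tumor. It followed Col4a1 library by library at a lower level. Col4a5, a chain of more specialised basement membranes, read 27.2, 28.95 and 18.9 FPKM in NPF and 7.19, 29.1, 21.1, 14.01 and 30.7 in WT_CAF. Col4a5 read 28.4, 37.3 and 21.5 FPKM in KO_CAF, 3.81, 3.85, 7.68 and 5.07 in WT_tumor and 4.18, 2.37 and 5.07 in KO_tumor. Among fibroblasts WT_CAF 1 was again the low one, at 7.19 FPKM, just under WT_tumor 3. Col4a6, which joins Col4a5 in one trimer, read 3.71, 1.73 and 0.959 FPKM in NPF and 0.0197, 2.24, 2.45, 3.51 and 5.3 in WT_CAF. Col4a6 read 4.86, 2.87 and 1.53 FPKM in KO_CAF, 0.0582, 0.779, 0.772 and 0.431 in WT_tumor and 0.346, 0.22 and 0.817 in KO_tumor. Every tumor cell library was under 1 FPKM for it, as were NPF 3 and WT_CAF 1.

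FACIT chains were led by 3 members. Col12a1, which coats type I fibrils, read 54.9, 68.7 and 37.6 FPKM in NPF and 9.35, 97.7, 183, 10.3 and 77.6 in WT_CAF 1 to 5. Col12a1 read 223, 97.8 and 39.3 FPKM in KO_CAF, 0.451, 0.629, 16.5 and 1.01 in WT_tumor and 5.1, 2.07 and 1.62 in KO_tumor. WT_tumor 3 was higher than WT_CAF 1 and 4 for this chain. Col14a1, a related fibril-surface chain, read 11.3, 46.1 and 126 FPKM in NPF and 2.06, 238, 57.05, 133 and 24.7 in WT_CAF. Col14a1 read 6.74, 493 and 161 FPKM in KO_CAF, 0.123, 0.228, 4.73 and 0.126 in WT_tumor and 0.783, 0.405 and 1.2 in KO_tumor. It varied widely within fibroblast groups, from 6.74 to 493 FPKM within KO_CAF. Col16a1 read 11.5, 23.3 and 33.6 FPKM in NPF and 5.78, 74.5, 135, 76.7 and 76.5 in WT_CAF. Col16a1 read 84.5, 93.6 and 68.7 FPKM in KO_CAF, 5.01, 4.6, 22.3 and 2.03 in WT_tumor and 5.11, 2.33 and 10.01 in KO_tumor. WT_CAF 2 to 5 and KO_CAF were all above NPF for Col16a1, and WT_CAF 1 was below it. Col20a1, the remaining FACIT chain tested, stayed at 1.27 FPKM or less in all libraries.

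Type VI chains, which form beaded filaments around cells, included 2 of the higher chains of the fibroblasts. Col6a1 read 72.3, 218 and 536 FPKM in NPF and 70.8, 744, 610.0, 337 and 251 in WT_CAF 1 to 5. Col6a1 read 357, 926 and 537 FPKM in KO_CAF, 73.4, 46.9, 27.5 and 40.9 in WT_tumor and 31.7, 14.3 and 7.19 in KO_tumor. WT_CAF 1 and NPF 1 lay at the level of WT_tumor 1. Col6a2 read 44.2, 209 and 569.7 FPKM in NPF and 36.2, 565, 679.9, 290.4 and 185 in WT_CAF. Col6a2 read 316, 949 and 517 FPKM in KO_CAF, 33.5, 15.9, 20.3 and 17.95 in WT_tumor and 13.5, 9.5 and 1.98 in KO_tumor. The 3 KO_tumor libraries were all below the 4 WT_tumor libraries for Col6a2. Col6a3, the long partner chain of the classic type VI trimer, read 10.2, 46.9 and 120.4 FPKM in NPF and 7.16, 108, 124, 24.7 and 19.8 in WT_CAF. Col6a3 read 111, 174 and 59.4 FPKM in KO_CAF, 0.0591, 0.334, 5.95 and 0.975 in WT_tumor and 1.18, 0.0864 and 0.103 in KO_tumor. Col6a1 and Col6a2 were thus both at 10 FPKM or more in 5 of the 7 tumor cell libraries, while WT_tumor 3 was the only one with more than 1.18 FPKM of Col6a3. Col6a5, which can take the place of Col6a3, read 0.191, 0.859 and 3.15 FPKM in NPF and 0.138, 11.9, 8.72, 41.5 and 0.767 in WT_CAF. Col6a5 read 1.37, 65.4 and 4.28 FPKM in KO_CAF, and at most 0.107 in tumor cells. The fibroblast libraries spread over more than an order for it, with KO_CAF 2 the highest. Col6a6, another such chain, read 0.961, 6.62 and 22.8 FPKM in NPF and 0.063, 2.05, 6.53, 8.85 and 0.39 in WT_CAF. Col6a6 read 4.16, 3.51 and 2.29 FPKM in KO_CAF and at most 0.0973 in tumor cells.

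Type VIII chains build a short-chain network around vessels and in the cornea. Col8a1 read 44.1, 55.7 and 38.9 FPKM in NPF and 16.2, 78.7, 123, 17.6 and 27.4 in WT_CAF 1 to 5. Col8a1 read 17.5, 95.8 and 97.9 FPKM in KO_CAF, 6.43, 0.825, 18.2 and 1.2 in WT_tumor and 5.08, 12.6 and 0.422 in KO_tumor. WT_tumor 3 was above the 3 lowest fibroblast libraries for it (WT_CAF 1, WT_CAF 4 and KO_CAF 1). Col8a2 read 0.865, 1.77 and 2.42 FPKM in NPF and 1.46, 16.6, 27.7, 5.51 and 16.7 in WT_CAF. Col8a2 read 5.92, 15.2 and 13.8 FPKM in KO_CAF, 0.0773, 0.0664, 0.942 and 0.0463 in WT_tumor and 0.0157, 0.0603 and 0.0111 in KO_tumor. NPF held Col8a1 but little Col8a2, and WT_CAF 2 to 5 and KO_CAF were all above NPF for Col8a2.

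The multiplexins Col15a1 and Col18a1 lie at basement membranes, and the end of the Col18a1 protein can be cut off as endostatin, an inhibitor of vessel growth. Col15a1 read 13.7, 135 and 264 FPKM in NPF and 12.5, 317, 272, 10.02 and 9.71 in WT_CAF 1 to 5. Col15a1 read 141, 289.6 and 22.2 FPKM in KO_CAF, 0.208, 0.702, 24.4 and 4.66 in WT_tumor and 1.49, 0.104 and 0.119 in KO_tumor. The 16-base libraries WT_CAF 4 and 5 and KO_CAF 3 were low for Col15a1, as were WT_CAF 1 and NPF 1. Col18a1 read 4.81, 13.9 and 34.2 FPKM in NPF and 42.5, 39.3, 60.8, 26.9 and 15.6 in WT_CAF. Col18a1 read 32.7, 41.2 and 27.99 FPKM in KO_CAF, 118, 100.5, 114 and 249 in WT_tumor and 116, 198 and 119 in KO_tumor. The 7 tumor cell libraries were all above the 11 fibroblast libraries, and Col18a1 was the highest collagen chain in 6 of the 7, WT_tumor 3 being the exception with Col1a1. Col7a1, the chain of the fibrils that anchor epithelia to the tissue below, read 4.12, 4.77, 4.09 and 11.2 FPKM in WT_tumor and 7.22, 3.83 and 3.51 in KO_tumor, and 0.456 to 16.7 in fibroblasts. Col28a1, a chain known from peripheral nerve, read 6.95, 1.91 and 4.85 FPKM in NPF and 0.0505, 17.2, 2.44, 13.4 and 4.32 in WT_CAF. Col28a1 read 1.58, 30.3 and 28.9 FPKM in KO_CAF and at most 0.205 in tumor cells. Schwann cell markers were low in these libraries, with sums over 6 genes of 2.21 to 20.1 FPKM in fibroblasts. Col23a1, a transmembrane chain, read 0.236, 1.29 and 4.92 FPKM in NPF, 0.16, 2.96, 4.9, 2.96 and 1.87 in WT_CAF and 0.573, 2.01 and 1.54 in KO_CAF, and at most 0.235 in tumor cells.

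Tumor cells were compared with fibroblasts to ask which collagen chains belong to which cell type. Differences were tested with limma on log2(FPKM + 1) with the library format as a term, the Benjamini-Hochberg adjustment covered all 13369 genes tested, and a chain was called where the adjusted p was under 0.05. Differences are on that log2 scale, ± standard error, and understate the change of chains with low values. Of the 29 chains tested, 21 were called lower and 1 higher in WT_tumor than in WT_CAF, against 12.5% and 9.05% of all genes tested. In KO_tumor against KO_CAF, 22 were called lower and 1 higher, against 15.4% and 13.0% of all genes. The 2 comparisons share no library, but both come from 1 fit of all 18 libraries, which shares the estimates of the spread and of the format term. Called lower in both were 19 chains, which is 19 of the 21 and 19 of the 22. All 29 had the same sign in both. The median difference over the 29 chains was -3.27 for WT and -3.77 for KO, against 0.07 and 0.05 over all genes tested. Of the 29 chains, 7 reached 1 FPKM in fibroblast libraries alone (Col4a6, Col6a5, Col6a6, Col8a2, Col23a1, Col24a1 and Col28a1), so they were tested only because they were high there, and their counts among the lower chains are a description. In bulk libraries, fewer cells of a type and less RNA per cell cannot be told apart.

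By class, 7 of 9 fibrillar chains were called lower in WT_tumor and 8 of 9 in KO_tumor. Col1a1 differed by -7.89 ± 1.24 (adjusted p = 0.0012) in WT and by -8.35 ± 1.41 (adjusted p = 0.0013). Col1a2 differed by -7.77 ± 1.35 (adjusted p = 0.002) and -8.42 ± 1.54 (adjusted p = 0.002). For Col1a1 and Col1a2 the difference was several times its error in both genotypes. Type III Col3a1 differed by -7.84 ± 2.15 and -9.10 ± 2.15, with 5 libraries dropped. Its size rests on a single fibroblast library in each genotype, WT_CAF 5 and KO_CAF 3. Type V chains differed as well, Col5a1 by -4.17 ± 0.89 (adjusted p = 0.0052) and -6.62 ± 0.90 (adjusted p = 0.00034), and Col5a2 by -5.28 ± 1.003 (adjusted p = 0.0028) and -7.52 ± 1.02 (adjusted p = 0.00034). Col5a3 was called in KO alone, at -4.15 ± 1.04 (adjusted p = 0.0098) against -2.57 ± 1.02 (adjusted p = 0.087) in WT, and whether the genotypes differ is given by the test of the difference below. Col11a1 and Col24a1 were called lower in both, by -2.63 and -2.06 in WT, which for Col24a1 is a description, since it reached 1 FPKM in fibroblast libraries alone. Col27a1 was not called, at 1.12 ± 0.54 (adjusted p = 0.15) and 0.75 ± 0.55 (adjusted p = 0.32).

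All 4 type IV chains tested were called lower in both tumor cell groups, at -3.70 and -3.91 for Col4a1, -3.64 and -4.11 for Col4a2, -2.07 and -2.63 for Col4a5, and -1.78 and -1.42 for Col4a6. Tumor cells still held 14.0 to 73.9 FPKM of Col4a1. Of the 4 FACIT chains tested, Col12a1, Col14a1 and Col16a1 were called lower in both, at -4.84, -5.08 and -4.03 in WT. Among the 12 other chains 7 were called lower in each comparison. Col8a2 had the smallest p of these in WT, at -3.71 ± 0.63 (adjusted p = 0.0015), and Col6a3 in KO, at -6.26 ± 0.94 (adjusted p = 0.0006). Col8a2, like Col4a6, Col6a5, Col6a6, Col23a1 and Col28a1, reached 1 FPKM in fibroblast libraries alone. The differences and calls of these chains are a description. Col6a1 and Col6a2 differed by -3.06 and -3.91 in WT and by -5.14 and -6.13 in KO. Col15a1 differed by -4.06 in WT and -6.08 in KO, and Col23a1 and Col6a6 were called in WT alone, at -1.92 and -2.36. Col8a1 and Col28a1 were called in KO alone, at -3.52 and -3.54. Col6a5 was called in neither (-3.27 ± 1.20 and -3.21 ± 1.22), and Col7a1 and Col20a1 had differences between 0.00 and 1.03.

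Col18a1 was the 1 chain called higher in tumor cells, by 2.01 ± 0.56 (adjusted p = 0.021) in WT and 2.03 ± 0.57 (adjusted p = 0.018) in KO. It rose in all 4 WT_tumor and all 3 KO_tumor libraries above every fibroblast library of the same genotype. The WT call was lost without WT_CAF 4, without WT_CAF 5 or without WT_tumor 1, and the KO call without KO_CAF 3 or without KO_tumor 2. Counts of lower chains were lower by more than 1.5 times without WT_CAF 3 (9 in WT) and without WT_tumor 1 (12), and 6 were called when only the WT_CAF and WT_tumor libraries entered the fit. The size of the WT difference rests on WT_CAF 3 to 5, since no tumor cell library shares the format of WT_CAF 1 and 2. For Col3a1 it rests on WT_CAF 5 alone. Without WT_CAF 1 the counts were 22 lower and 1 higher of 28 chains tested, Col3a1 having no value, and without WT_tumor 3 they were 20 and 1 of 28.

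Ranges that did not overlap gave the same order. In KO, 25 of the 29 chains were lower in every KO_tumor library than in every KO_CAF library, against 21.3% of all genes. Higher in every KO_tumor library were 2 (Col7a1 and Col18a1), against 20.6%. The 25 include all 7 chains that reached 1 FPKM in fibroblast libraries alone, and for these 7 the order is a description. In WT the count was 9 lower and 1 higher, against 7.02% and 5.66% of all genes. Without WT_CAF 1 it was 21 lower and 1 higher, against 16.1% and 12.5%. Of those 7 chains, Col6a5, Col8a2 and Col24a1 are among the 9, and all 7 are among the 21. Within the 6-base libraries the median of the chains was -3.71 in WT (25 of 28 below 0) and -3.74 in KO (24 of 28), and within the 16-base libraries it was -3.10 (26 of 29) and -3.56 (26 of 29).

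**Figure D3:**
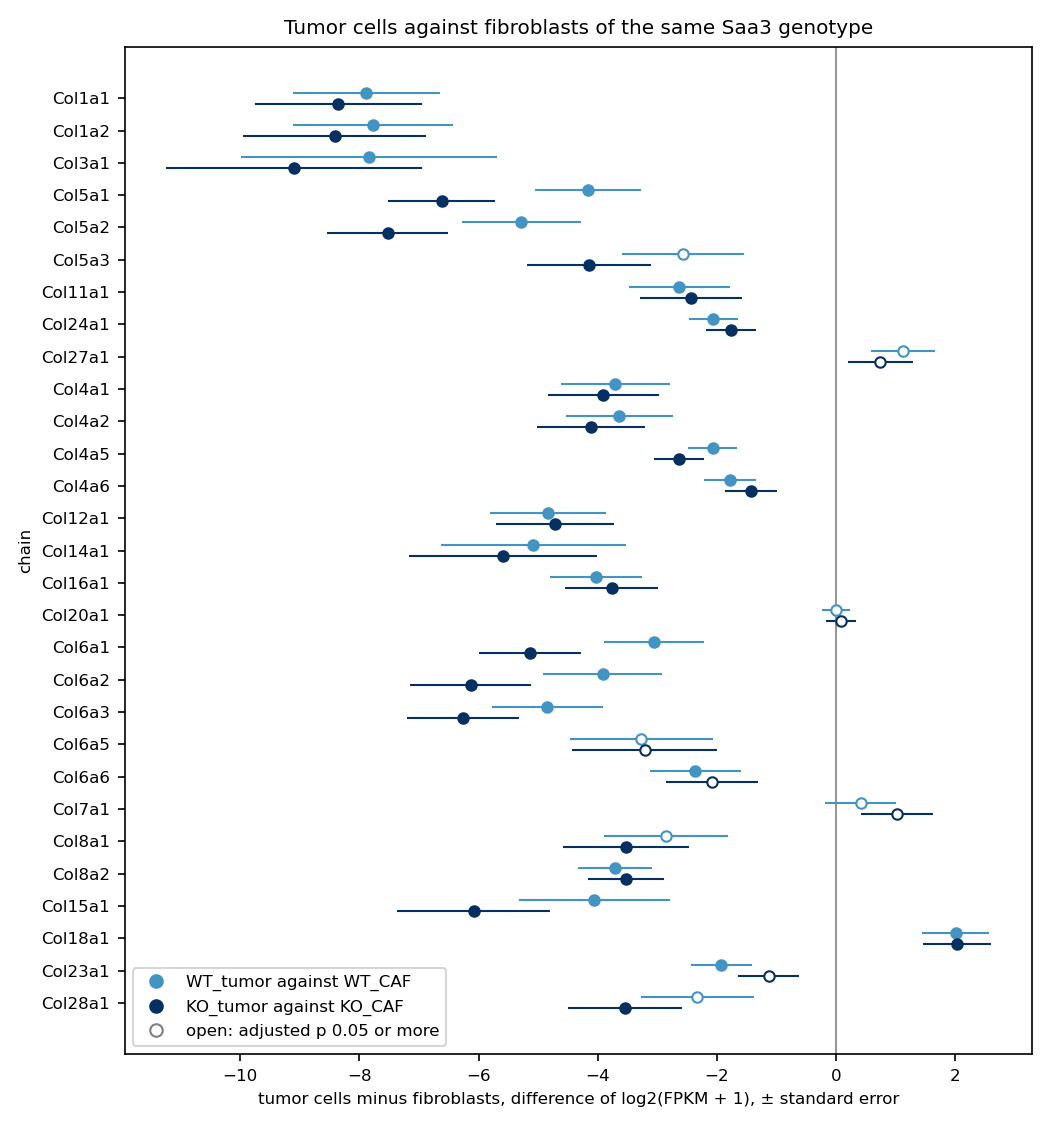
Difference between tumor cells and fibroblasts of the same Saa3 genotype for the 29 chains tested, on the log2(FPKM + 1) scale with its standard error, WT above and KO below for each chain, open where the adjusted p was 0.05 or more. Most chains lie left of 0, type I and III chains farthest, and Col18a1 lies near 2 in both genotypes.

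Genes that process and bind collagen were read from lists chosen with earlier results of these data known. Of 20 genes tested for chain synthesis, hydroxylation and folding, 14 were called lower in WT_tumor and none higher (12.5% and 9.05% of all genes), and 14 lower and 1 higher in KO_tumor (15.4% and 13.0%). Leprel2, a prolyl 3-hydroxylase, differed by -4.78 in WT and -5.50 in KO, and Serpinh1, the collagen chaperone of the endoplasmic reticulum, by -4.40 and -3.58. The lysyl hydroxylase Plod2 differed by -3.47 and -3.94. The 1 called higher in KO was Leprel1 (0.82), named after its values were seen. For removal of the propeptides, 4 of 7 were called lower in WT and 5 of 7 in KO, led by the procollagen N-proteinase Adamts2 (-5.51 and -5.95). The C-proteinase Bmp1 differed by -2.87 and -2.94.

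Of 5 cross-linking lysyl oxidases, 4 were called lower in each genotype, against 12.5% of all genes in WT and 15.4% in KO. Lox differed by -6.94 and -7.54 and Loxl1 by -6.03 and -6.22. Of 13 proteins that bind or lie beside collagen, 11 were called lower in each, among them the fibril-coating proteoglycans Dcn (-8.31 and -8.46), Bgn (-7.63 and -7.88) and Lum (-7.37 and -7.70). Fn1, fibronectin, is in that list and was listed at 0 in WT_CAF 1 and KO_CAF 1 while other fibroblast libraries held 341 to 2629 FPKM, so its fitted difference carries no meaning. Of 7 receptors, 3 were called lower and 1 higher in WT (12.5% and 9.05% of all genes), and 4 lower and 1 higher in KO (15.4% and 13.0%). A single higher gene of 7 is near the share of all genes. Fibroblast receptors Mrc2, which takes up collagen fragments (-5.35 and -5.49), Ddr2 (-4.16 and -4.60) and the integrin chain Itga11 (-4.05 and -4.23) were lower in tumor cells. Itga2, the integrin chain of epithelial collagen binding, was higher by 3.23 and 3.58, with 10.95 to 55.8 FPKM in tumor cells and 0.929 to 7.53 in fibroblasts. Of 10 collagen-cutting enzymes and inhibitors, 7 were called lower in each, led by Mmp2 (-7.67 and -8.22), and the collagenase Mmp13 was called higher in KO (3.86). In these lists Adamts3, Tnxb, Itga11 and Reck reached 1 FPKM in fibroblast libraries alone, so they were tested only because they were high there. Any place of theirs among the lower genes is a description.

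Cancer-associated fibroblasts were compared with normal fibroblasts to ask which chains differ between the tumor and the healthy pancreas. With all libraries, limma called 0 of the 29 chains in WT_CAF against NPF in either direction, against 0.277% higher and 0.673% lower of all genes, and 4 chains had an unadjusted p under 0.05 (Col18a1, Col20a1, Col6a6 and Col24a1). Above 0 were Col18a1, at 1.53 ± 0.64 (adjusted p = 0.25), and Col24a1, at 1.05 ± 0.47 (adjusted p = 0.28). Below 0 were Col6a6, at -1.98 ± 0.87 (adjusted p = 0.27), and Col20a1, at -0.63 ± 0.27 (adjusted p = 0.27). Col1a1 differed by 1.42 ± 1.40 (adjusted p = 0.64), an error nearly as large as the difference. The median of the chains was -0.33, with 10 above and 19 below 0. The size of each difference here rests on WT_CAF 1 and 2 against the 3 NPF libraries, which share the form of label without an index. For Col3a1 it rests on WT_CAF 1 alone, since the value of WT_CAF 2 was dropped.

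Left without WT_CAF 1, the chains leaned the other way. In the same fit 25 of 28 chains were above 0 with a median of 1.63, although 0 were called (0.758% higher and 0.653% lower of all genes), and the size then rested on WT_CAF 2 alone. Col8a2 stood at 2.76 (adjusted p = 0.068) and Col24a1 at 1.90 (adjusted p = 0.072). Without WT_CAF 1 and with the format in 2 levels (16-base index against the rest, an alternative added after the values were seen), 4 chains were called higher and 0 lower, against 5.06% and 4.61% of all genes. These were Col24a1 (2.12 ± 0.33, adjusted p = 0.0015), Col8a2 (2.72 ± 0.46, adjusted p = 0.0025), Col16a1 (2.29 ± 0.58, adjusted p = 0.025) and Col1a1 (3.69 ± 1.04, adjusted p = 0.042). Without WT_CAF 1 and with no format term, 3 were called higher (Col8a2, Col24a1 and Col16a1) and 0 lower, against 3.87% and 2.93% of all genes. Over the alternatives run, the adjusted p ranged from 0.0015 to 0.84 for Col24a1, 0.0023 to 0.97 for Col8a2, 0.025 to 1.0 for Col16a1 and 0.042 to 0.89 for Col1a1. Without WT_CAF 2, which leaves WT_CAF 1 to set the size, 1 chain was called lower, Col4a5 (-1.65, adjusted p = 0.030), against 5.50% lower and 4.49% higher of all genes. The direction of the difference for most chains thus turned on which of these 2 libraries entered.

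Ranges gave a count that does not use the format term. Col24a1 was the 1 chain with every WT_CAF library above every NPF library, and none had every library below, against 5.13% and 6.05% of all genes. Col24a1 reached 1 FPKM in CAF libraries alone and so was tested only because it was high there, which makes its place above NPF a description here and in the fits above. Without WT_CAF 1 there were 6 above (Col1a1, Col1a2, Col3a1, Col8a2, Col16a1 and Col24a1) and 0 below, against 11.0% and 10.2% of all genes. Col3a1 is among the 6 through WT_CAF 5 alone, since its values in WT_CAF 2 to 4 were dropped. For Col3a1 and Col24a1 the share of all genes is therefore no measure. Exact permutation tests on the type I and III chains, two-sided, gave a difference of 2.26 for Col1a1 (n = 5 and 3, p = 0.089, Benjamini-Hochberg 0.54 over 6 tests), where the smallest p the design allows is 0.018. For Col1a2 the difference was 1.55 (exact p = 0.25), and for Col3a1 it was 0.99 with 2 WT_CAF libraries left (exact p = 0.60, smallest possible 0.10). Without WT_CAF 1 the exact tests gave 3.01 for Col1a1 and 2.49 for Col1a2, each at p = 0.029, the smallest that 4 against 3 libraries can give, and 0.086 after adjustment. Acinar transcripts were higher in every NPF library than in every WT_CAF library by the sums above, and their part in these differences was not tested. Among the NPF libraries, NPF 1 was the lowest for 22 of the 29 chains and the highest for 3, and NPF 3 was the lowest for 6 and the highest for 19.

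**Figure D4:**
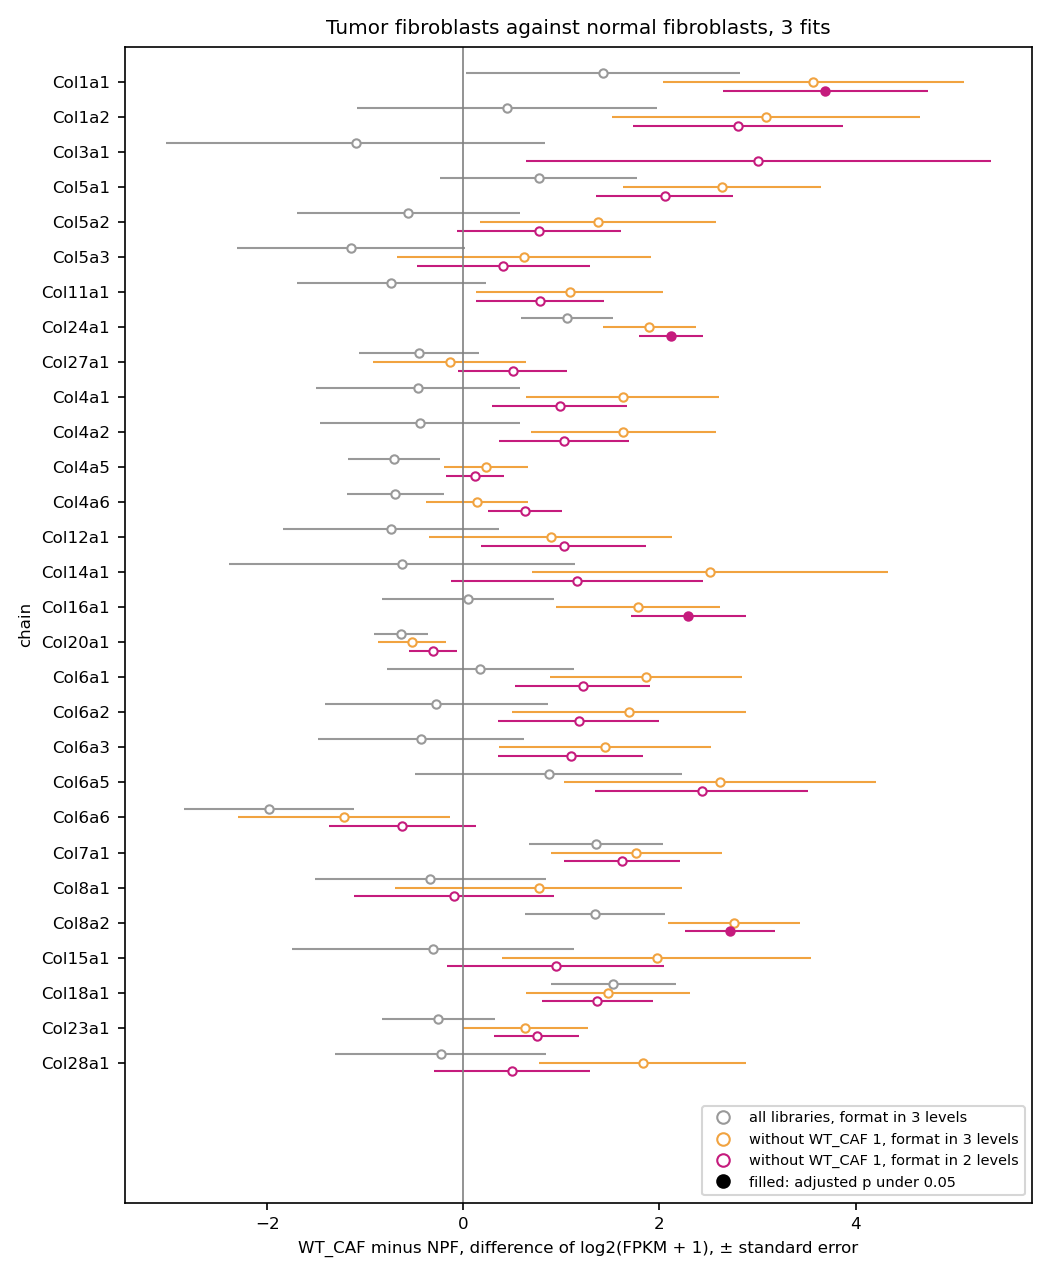
Difference between WT_CAF and NPF for the 29 chains tested, on the log2(FPKM + 1) scale with its standard error, in 3 fits that differ in the use of WT_CAF 1 and of the library format, filled where the adjusted p was under 0.05. Col3a1 has no value in the second fit. Most chains move from the left of 0 or near it to the right of 0 when WT_CAF 1 is left out.

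Loss of Saa3 was compared within each cell type. In KO_CAF against WT_CAF, limma called 0 of the 29 chains, against 0.00748% higher and 0% lower of all genes, and 0 chains had an unadjusted p under 0.05. The size of each fitted difference rests on WT_CAF 3 to 5, since no KO_CAF library shares the format of WT_CAF 1 and 2. For Col3a1 it rests on KO_CAF 3 against WT_CAF 5 alone. The largest differences were Col28a1 (1.30 ± 0.99) and Col6a3 (0.92 ± 0.97) above 0 and Col23a1 (-0.90 ± 0.53) below 0, each with an adjusted p of 1.0. The median was 0.23, with 18 above and 11 below 0. Within the 6-base libraries 18 of 28 chains were below 0 (median -0.31), and within the 16-base libraries 21 of 29 were above 0 (median 0.46), so the formats did not give the same direction. Exact permutation tests of KO_CAF against WT_CAF gave 0.79 for Col1a1 (n = 2 and 5, exact p = 0.62) and 0.94 for Col1a2 (exact p = 0.67), with KO_CAF 2 dropped. Without WT_CAF 1 these differences were 0.04 (exact p = 0.87) and -0.00108 (exact p = 1.0). Col3a1, with 1 KO_CAF library left against 2, was the only chain whose ranges did not overlap. The smallest exact permutation p that 1 against 2 libraries can give is 0.33. Without WT_CAF 1 it was again the only chain, but there 1 library stood against 1, and single values cannot overlap. Of all genes, 0.471% higher and 0.733% lower were apart with all libraries, and 0.928% and 1.38% without WT_CAF 1. Those shares come from genes with more libraries, so Col3a1 cannot be set against them.

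In KO_tumor against WT_tumor, limma called 0 of the 29 chains and 0% of all genes in either direction, and 1 chain, Col5a1, had an unadjusted p under 0.05. Col5a1 differed by -1.83 ± 0.84, Col5a2 by -2.02 ± 0.95, Col6a1 by -1.50 ± 0.80 and Col6a2 by -1.52 ± 0.95, each with an adjusted p of 1.0. Fibrillar chains were below 0 in 8 of 9 cases, with a median of -0.54, and the median of all 29 was -0.15. The formats differed in this: 8 of 9 fibrillar chains were below 0 within the 6-base libraries and 5 of 9 within the 16-base ones, and over all chains 24 of 29 (median -0.35) and 13 of 29 (median 0.02) were. Without WT_tumor 3 the median was -0.02 and 0 chains had an unadjusted p under 0.05. Col6a2 was lower in every KO_tumor library and Col28a1 higher in every one, against 2.25% and 1.36% of all genes, and Col28a1 was at or under 0.205 FPKM throughout. The difference between the 2 knockout effects (fibroblasts minus tumor cells) was called for 0 chains and 0% of all genes in either direction, with 0 unadjusted p under 0.05. It was largest for Col5a1 (2.45 ± 1.26), Col5a2 (2.24 ± 1.43) and Col6a2 (2.22 ± 1.42), each with an adjusted p of 1.0. The tumor-fibroblast difference of Col5a3, Col8a1, Col28a1, Col6a6 and Col23a1, each called in 1 genotype alone, was thus not shown to differ between genotypes.

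Chains of one trimer were compared as ratios within a library, which removes library scaling. Col4a1 over Col4a2 lay between 1.47 and 2.26 in all 18 libraries. Its mean ± standard deviation was 1.74 ± 0.23 in NPF, 1.81 ± 0.23 in WT_CAF and 1.73 ± 0.04 in KO_CAF. In tumor cells it was 1.72 ± 0.36 (WT_tumor) and 2.04 ± 0.21 (KO_tumor). The levels of these 2 chains, whose annotated starts overlap as printed above, spanned more than an order. Col1a1 over Col1a2 was 0.77 to 1.004 in NPF and 0.70 to 2.44 in WT_CAF. Its log2 ratio differed between them by 0.71 (exact permutation p = 0.16, n = 5 and 3). Col6a1 over Col6a2 was 0.90 to 1.96 in WT_CAF and 1.35 to 2.94 in WT_tumor. That difference of 0.67 on the log2 scale had an exact permutation p of 0.056 (n = 4 and 5) and 0.50 after adjustment over the 9 ratio tests, and the exact p without WT_CAF 1 was 0.057. None of the 9 ratio tests passed, the other exact p-values lying between 0.16 and 0.90. Col5a1 over Col5a2, looked at after the values were seen and given no test, stood at 0.22 to 0.62 for NPF libraries, 0.63 to 0.96 for WT_CAF, 0.86 to 1.32 for KO_CAF and 0.60 to 5.15 for tumor cells. NPF were below both fibroblast groups from tumors for this ratio.

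**Figure D5:**
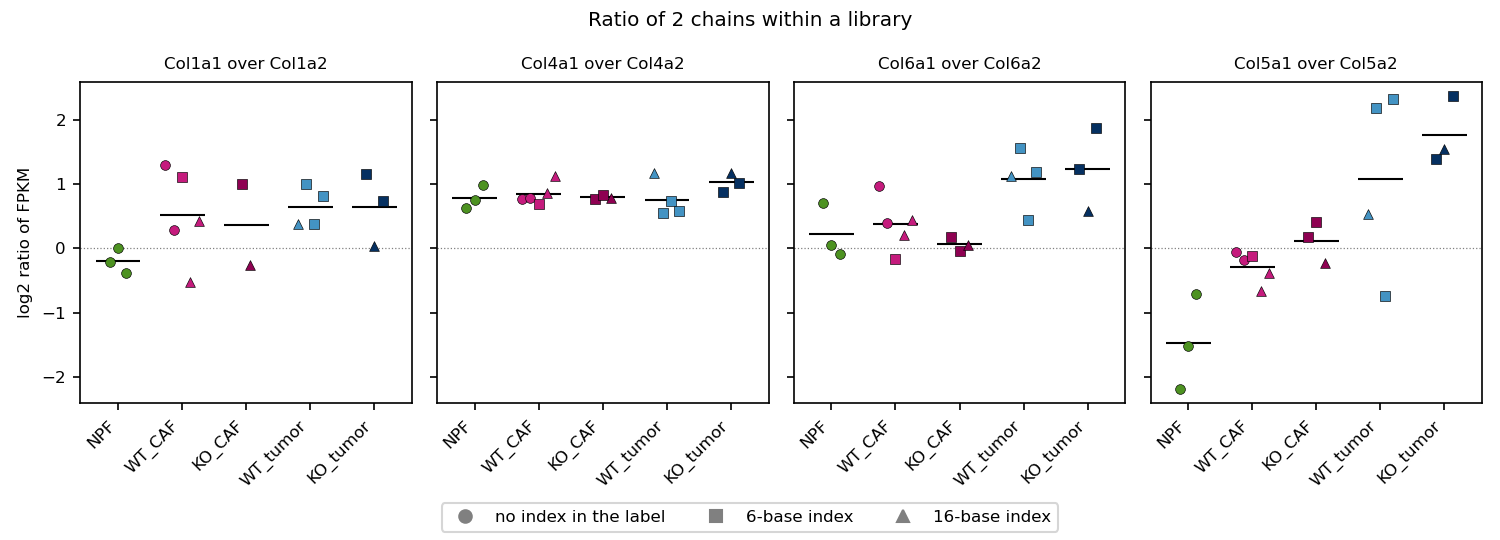
Log2 ratio of 2 chains within a library, by group, with 1 point per library, its shape giving the library format and the line the group mean. The Col4a1 over Col4a2 points lie in a narrow band in every group, and the Col5a1 over Col5a2 points are lowest in NPF and widest in tumor cells.

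The library formats were compared as well. Between 16-base and 6-base libraries, within groups that hold both, 2 chains were called lower and 0 higher in the 16-base form, against 11.2% and 6.65% of all genes, so the share of chains was no higher than that of all genes. The 2 chains were Col27a1 (-1.85 ± 0.40, adjusted p = 0.0053) and Col20a1 (-0.57 ± 0.18, adjusted p = 0.041). Col15a1 stood at -2.68 ± 0.95 (adjusted p = 0.068). What the 2 forms of label stand for is not stated in the labels, and the format was kept as a term in the tests above.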

How the data were processed

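RNA of sorted cells was sequenced on a HiSeq2000 from TruSeq libraries, per the labels' protocols. The deposited values are FPKM per gene, 1 column per library, that the authors made before deposit. The submitters' processing notes list Cuffnorm with Cufflinks 2.2.1, TopHat2 2.0.10, Bowtie 1.0.0, the utilities SAMtools 0.1.19 and FastQC, and the builds mm9, GRCh37 and hg19, with no order or role. Read depth cannot be read from FPKM, so it is unknown here, and the summed FPKM was 396646 to 919859 per library.

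Groups were taken from the labels, and replicate numbers follow the order of deposit. The labels' design text gives biological replicates, and whether any 2 libraries share an animal is not stated. The members, the class and pathway lists and the rule for named genes (a mean of 10 FPKM or more in any group, or a call) were chosen with earlier results of these data known. Exact 0 of Col1a1, Col1a2 and Col3a1 in fibroblasts was set to missing. Genes with at least 1 FPKM in at least 3 libraries (13369, with 10582 removed) entered a limma fit (limma 3.58.1 under R 4.3.3) on log2(FPKM + 1), with group and library format as terms, a trend in the prior variance, two-sided tests and Benjamini-Hochberg adjustment, and 11 residual degrees of freedom. Exact permutation tests were used for single levels and ratios. The procedures were tested on simulated data. Alternatives were other filters, pseudocounts, normalization, format terms and libraries left out. Some items are not reported here.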

Additional observations from a re-analysis of the deposited data

Results flagged for a closer look

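In groups of 4 or 5 libraries, a chain was singled out where its highest or lowest library lay far from the others against the range of the group. For independent values with a normal spread, chance singles out about 1 in 20 groups, and 8 of 57 were. Chains of the same library are not independent, and all 8 lay in WT_tumor 3, WT_tumor 4 or WT_CAF 1. The count therefore cannot be set against that share. In WT_tumor, library 3 was the high one for Col6a5 (0.107 FPKM), Col6a6 (0.0973 FPKM), Col8a2 (0.942 FPKM), Col12a1 (16.5 FPKM) and Col14a1 (4.73 FPKM). Of 11 fibroblast markers this library was the highest WT_tumor library for 6 and the lowest for 4, and its sum over them was the lowest of the tumor cell libraries (429 FPKM). The part of other cells in it was not tested. Library 4 of WT_tumor was the high one for Col7a1 (11.2 FPKM). It was the lowest WT_tumor library for 10 of the 11 epithelial markers. In WT_CAF, library 1 was the low one for Col1a2 (135 FPKM) and Col16a1 (5.78 FPKM). It was the lowest WT_CAF library for 8 of the 11 fibroblast markers, with a sum of 3815 FPKM that was within the range of the others.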

How the results depend on the processing

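No paired analysis was possible because the labels carry no replicate numbers that tie libraries of different groups to each other. The count of chains called higher in WT_CAF than in NPF was 3 without WT_CAF 1 and with no format term, and 4 without WT_CAF 1 and with the format in 2 levels, an alternative chosen after seeing the data. For WT_tumor against WT_CAF, the count called higher was 0 with no low-value filter, 0 with only the groups compared, and 2 with the format in 2 levels, with or without WT_CAF 1, and the count called lower was 6 with only the groups compared. Col16a1 in WT_CAF against NPF was -0.00756 under quantile normalization. With exact 0 kept as a value, Col3a1 was 2.39 in WT_tumor against WT_CAF and -5.24 in WT_CAF against NPF, and Col1a1 and Col1a2 were -3.26 and -2.99 in KO_CAF against WT_CAF. The cause of the other changes was not tested.

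With 1 library left out at a time, the count called lower in WT_CAF than in NPF was 0 to 1. In WT_tumor against WT_CAF it was 0 to 2 higher and 9 to 23 lower, and in KO_tumor against KO_CAF 0 to 1 higher and 17 to 24 lower. For WT_CAF against NPF the differences ranged from -1.69 to 1.78 for Col16a1, -0.72 to 3.57 for Col1a1, -2.20 to 3.09 for Col1a2, -1.11 to 2.64 for Col5a1 and -0.0802 to 2.76 for Col8a2, with the lowest value without WT_CAF 2 and the highest without WT_CAF 1. In the exact tests, Col3a1 ranged from -1.10 to 3.07 in WT_CAF against NPF, and Col1a2 from -0.00108 to 1.32 in KO_CAF against WT_CAF. On the log2 scale, the Col4a1 over Col4a2 ratio ranged from -0.0303 to 0.15 in WT_CAF against NPF and -0.0862 to 0.0239 in KO_CAF against WT_CAF, and the Col6a1 over Col6a2 ratio from -0.00987 to 0.38 in WT_CAF against NPF. The Col1a1 over Col1a2 ratio ranged from -0.78 to 0.48 in KO_CAF against WT_CAF and -0.20 to 0.25 in WT_tumor against WT_CAF.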
